A study of Homo sapiens with 9 samples.

Results

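Evernic acid (EA) is a depside of the oakmoss lichen Evernia prunastri. The comparison described here sets U-87 cells, a human glioblastoma line, exposed to 45 µM EA (EA45) against the same line exposed to 30 µM EA (EA30). The members are 5 of the 9 libraries of the series: EA45, EA30 and 3 untreated controls, chosen by their labels. The controls served as the baseline and as the only source of the spread between libraries.

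All 5 libraries came from 1 cell line, and EA was given for 24 h. The labels describe the controls as receiving no treatment and name no vehicle for them. RNA was sequenced from transcript 3′ ends (QuantSeq), and the authors deposited whole read counts for 159067 RefSeq transcripts. The other 4 libraries of the series, which received temozolomide (TMZ) or EA with TMZ, enter none of the tests below apart from 1 alternative fit. Each dose was sequenced once, so the difference between the doses has no replicate check, and the lone treated libraries were assumed to vary like the controls.

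A dose comparison can separate transcripts whose level keeps moving as the dose goes up from those that moved at the lower dose or at the higher dose alone. Dose responses of single genes can be graded, can have a threshold or can turn back, and a pair of doses with untreated cells is the smallest design that shows such shapes. Among the processes known to matter in glioblastoma are growth factor and Wnt signalling, stem cell transcription factors, the response to low oxygen and the surface ligands through which tumour cells meet immune cells.

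The library totals were 490235 counts in EA30, 325812 in EA45 and 269057, 259753 and 285248 in the controls. EA30 was thus the deepest library. The genes of the mitochondrial genome took 58.2% of the counts in EA30 (95% Wilson interval 58.0 to 58.3%) and 54.8% in EA45 (54.6 to 55.0%). In the controls the share was 48.6, 48.4 and 49.1%. These intervals cover counting error only. The number of transcripts with at least 1 count was 2559 in EA30, 2116 in EA45, and between 2207 and 2388 in the controls. Of the 159067 transcripts, 4745 had a count in these 5 libraries, and 644 averaging 10 counts or more were tested.

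The label of a glioblastoma line could be checked against few markers. Of 11 astrocyte and glioma markers, 2 had counts: NES, an intermediate filament of neural progenitors, and the glutamate transporter gene SLC1A3. GFAP, S100B, VIM, SOX2, CD44, AQP4, OLIG2, EGFR and CHI3L1 were listed at 0 in all 5 libraries. However, ACTB, GAPDH and EEF1A1, which every cell uses, were also listed at 0, so zeros here say nothing about whether a transcript was present. NES had 152, 169 and 174 counts in the controls, 56 in EA30 and 15 in EA45. Summed over the 11 markers, the counts were 161, 174 and 176 in the controls, 58 in EA30 and 17 in EA45, nearly all from NES. They are not scaled for the depth of the libraries. All 6 neuronal, 4 oligodendrocyte, 6 microglial and 4 endothelial markers were listed at 0, and of 5 fibroblast markers PDGFRB had 1, 5 and 1 counts in the controls and 0 in both EA libraries. In bulk RNA, fewer cells that carry a transcript and less of it per cell cannot be told apart.

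Between EA45 and EA30, 46 transcripts differed, 7.14% of the 644 tested (edgeR quasi-likelihood F-test, Benjamini-Hochberg adjusted p under 0.05). EA45 was higher for 19 (2.95%) and lower for 27 (4.19%). The higher group was led by CD70, MEIKIN, LINC00668 and LURAP1L, each close to 3-fold up or more, and the lower group by IFITM2, POLR2L and SOX4, each more than 2-fold down. The log2 fold changes of the 19 lay between 0.68 and 2.08, and 9 of the 19 and 19 of the 27 differed by more than 2-fold. The median over all tested transcripts was -0.03. With DESeq2's Wald test 26 transcripts passed, all of them among the 46, with 7 higher and 19 lower. Without control 3 the number rose to 83, and it was 53 without control 1 and 60 without control 2. The p-values measure only the spread between these samples, which may be technical, since the sample labels do not state that the controls came from separate cultures.

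**Figure D1:**
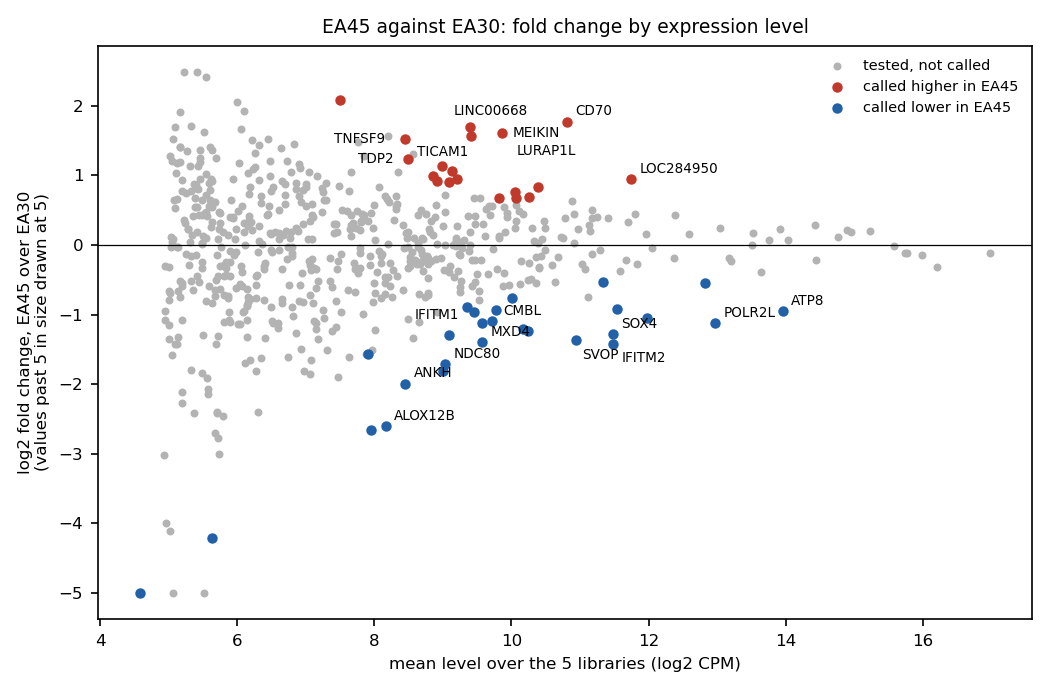
Log2 fold change of EA45 over EA30 (vertical axis) against the mean log2 CPM over the 5 libraries (horizontal axis) for the 644 tested transcripts, where CPM are counts per 1000000 counts of a library after TMM scaling. Red points are the 19 transcripts called higher in EA45 and blue points the 27 called lower. Values beyond 5 in size are drawn at 5, and the scatter widens to the left, where counts are low.

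In the same fit, 92 transcripts differed between EA30 and the controls (14.3% of 644), 50 higher (7.76%) and 42 lower (6.52%). Between EA45 and the controls 224 differed (34.8%), 111 higher (17.2%) and 113 lower (17.5%). Both comparisons use the same controls. The distance between the doses can also be read without a test. The absolute log2 ratio between EA45 and EA30 had a median of 0.50 over the 644 transcripts, against 0.27, 0.31 and 0.26 for the 3 pairs of controls. A difference of at least 2-fold was seen in 129 transcripts (20.0%) between the doses, 51 higher and 78 lower in EA45. Between controls it was seen in 53, 52 and 43 transcripts (8.23, 8.07 and 6.68%).

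**Figure D2:**
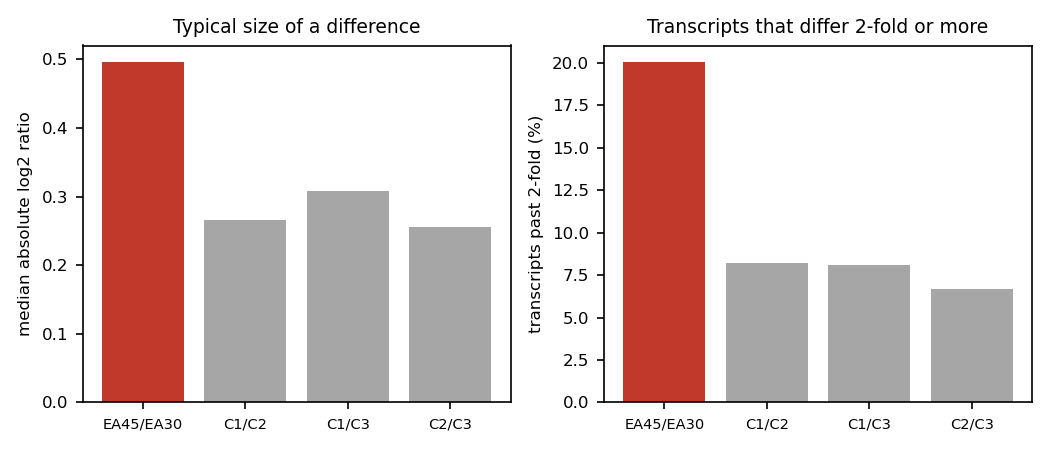
Median absolute log2 ratio (left) and percentage of the 644 tested transcripts that differed at least 2-fold (right) for EA45 against EA30 (red) and for each pair of controls (grey, C1 to C3). The doses stand further apart, with a median of 0.50, than any pair of controls, with at most 0.31.

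The leading transcript was CD70 (NM_001252.5), a TNF family ligand that binds CD27 on lymphocytes. Its level was 1415, 1443 and 1399 CPM in the controls, 1077 CPM in EA30 and 3681 CPM in EA45. EA45 alone stood above the controls, while EA30 lay below each of them, a distance that did not pass on its own (edgeR adjusted p = 0.0638). The log2 fold change of EA45 over EA30 was 1.77 (with a standard error, SE, of 0.16, edgeR adjusted p = 1.9e-05). A further CD70 transcript, NM_001330332.2, was also higher in EA45, by 1.17 log2 units (SE 0.58), but was not called (edgeR adjusted p = 0.248). TNFSF9, the ligand of the costimulatory receptor 4-1BB, had 92.0, 182 and 160 CPM in the controls, 336 in EA30 and 971 in EA45. Here both doses were above the controls and EA45 was the higher, with a log2 fold change of 1.53 (SE 0.38, edgeR adjusted p = 0.0286). On GRCh38 the genes lie near each other on chromosome 19, TNFSF9 from 6530999 to 6535928 on the plus strand and CD70 from 6583183 to 6604103 on the minus strand.

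TICAM1, the adaptor known as TRIF that carries signals from Toll-like receptors, had 314, 432 and 406 CPM in the controls, 435 in EA30 and 957 in EA45. EA45 was above every control, and EA30 was level with the highest of them. The log2 fold change between the doses was 1.14 (SE 0.27, edgeR adjusted p = 0.0233), and DESeq2's Wald test ended the call (adjusted p = 0.0942).

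IFITM2 and IFITM1, which interferon induces, were both lower in EA45. IFITM2, one of a family of small membrane proteins that hinder virus entry, had 3283, 3303 and 3493 CPM in the controls, 3064 in EA30 and 1148 in EA45. EA30 was close to the controls, and EA45 was far below them (log2 fold change -1.42, SE 0.16, edgeR adjusted p = 9.96e-05). IFITM1 had 1019, 959 and 942 CPM in the controls, 592 in EA30 and 271 in EA45. Its level was already below the controls in EA30 (log2 fold change -0.72). Between the doses IFITM1 had a log2 fold change of -1.12 (SE 0.22, edgeR adjusted p = 0.0061). The annotated exons of IFITM1 and IFITM2 share 351 bases and the genes are close copies, so their counts are uncertain as separate values. BST2, the other tested member of the list used for the interferon response, had a log2 fold change of -0.30 (SE 0.33, edgeR adjusted p = 0.614). RIGI and TRIM38, which were not on that list and were not called, moved in opposite directions. With scaling over all 9 libraries, RIGI had 281 CPM in EA30 and 414 in EA45, and TRIM38 had 111 and 50.4.

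Since these immune genes moved in both directions, 3 of their promoters are shown, from 250 bases before to 50 after the start (RefSeq, GRCh38.p14). Of the 36 called transcripts with a symbol, 30 genes had such a sequence, CD70 and IFITM2 not among them, and 5 motifs were searched on both strands. The 3 shown were picked because they hold a match. Capitals mark the interferon-stimulated response element (ISRE), to which interferon regulatory factors bind, and the NF-kB consensus. The first is at positions -40 and -6 from the start in IFITM1 and at -194 in TNFSF9, and the second is at -120 in TICAM1.
IFITM1 promoter (chr11:313790-314089, plus strand): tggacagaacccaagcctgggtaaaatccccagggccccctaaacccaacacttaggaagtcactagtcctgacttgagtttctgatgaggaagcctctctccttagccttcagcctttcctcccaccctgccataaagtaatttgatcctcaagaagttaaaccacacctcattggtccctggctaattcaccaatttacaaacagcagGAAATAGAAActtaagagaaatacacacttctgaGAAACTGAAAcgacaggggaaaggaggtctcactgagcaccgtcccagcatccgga
TNFSF9 promoter (chr19:6530776-6531075, plus strand): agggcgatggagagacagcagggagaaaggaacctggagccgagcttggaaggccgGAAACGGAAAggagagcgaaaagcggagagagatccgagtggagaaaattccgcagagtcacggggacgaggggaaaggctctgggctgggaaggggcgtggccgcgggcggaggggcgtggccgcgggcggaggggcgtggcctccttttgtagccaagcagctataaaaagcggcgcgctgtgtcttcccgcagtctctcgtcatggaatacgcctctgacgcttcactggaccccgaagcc
TICAM1 promoter (chr19:4831663-4831962, minus strand): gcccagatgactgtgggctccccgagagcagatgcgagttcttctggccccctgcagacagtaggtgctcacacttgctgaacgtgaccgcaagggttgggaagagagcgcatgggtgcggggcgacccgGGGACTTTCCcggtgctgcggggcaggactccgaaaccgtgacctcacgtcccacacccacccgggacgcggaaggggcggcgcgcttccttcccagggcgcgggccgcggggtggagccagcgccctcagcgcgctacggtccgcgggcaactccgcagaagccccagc
The ISRE was found in 3.57% of 35116 promoters of the same length and in 2 of the 30 genes. The NF-kB consensus was found in 7.73% of all promoters and in 4 of the 30 genes, which were CREB3, POLR2L, TICAM1 and VOPP1. The other motifs were AP-1 (TGANTCA, 7.71% of all promoters and 2 of the 30 genes), HRE (ACGTG, 21.4% and 4) and CHR (TTTGAA, 15.2% and 4). VOPP1 has 7 such windows and was counted if any of them matched, so shares of promoters and counts of genes are not in the same unit. The motifs were chosen after the values were seen, and a match describes the letters in the window only.

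**Figure D3:**
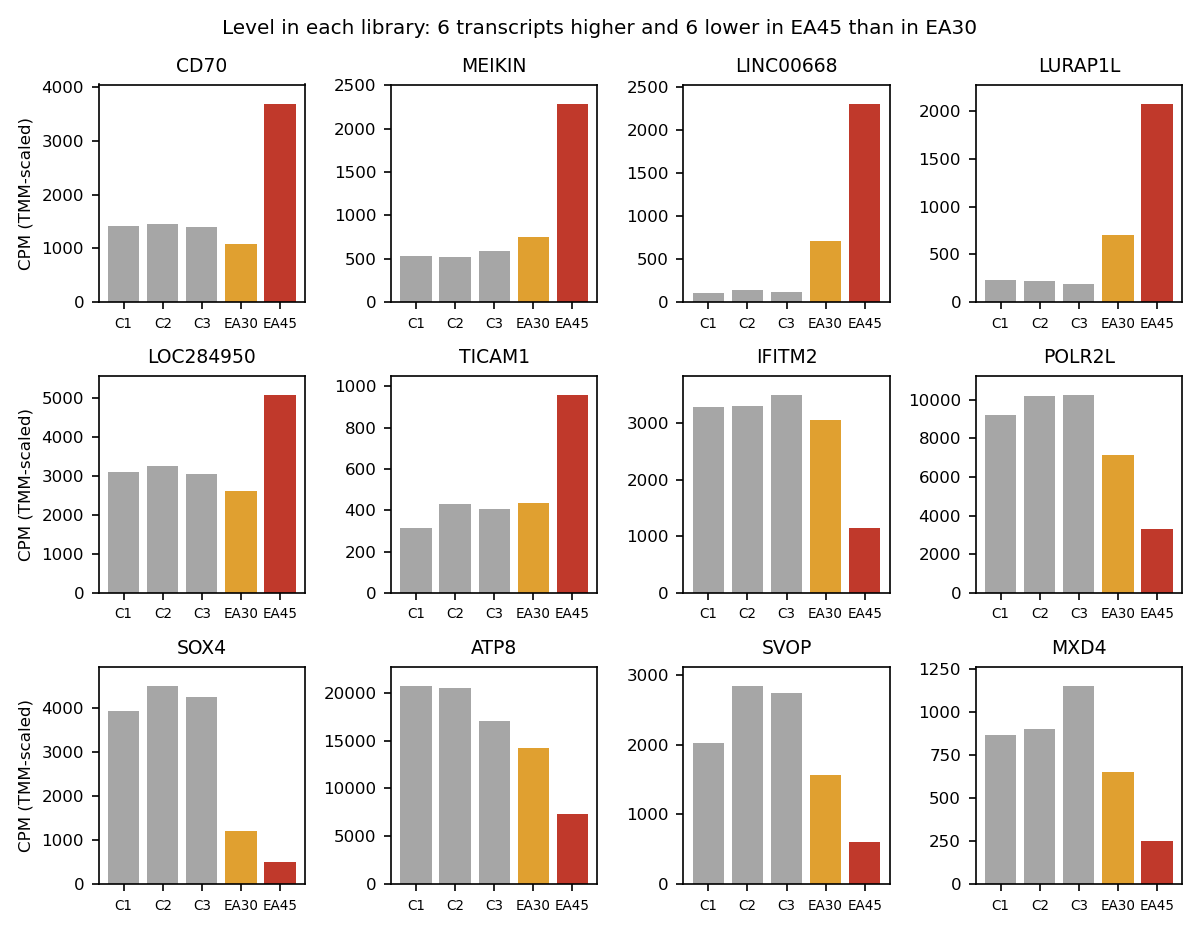
Level in CPM after TMM scaling (vertical axes, from 0) in the 3 controls (C1 to C3, grey), EA30 (orange) and EA45 (red) for the 6 transcripts with a symbol and the lowest p in each direction. The first 6 panels are higher in EA45 and the others lower, and CD70 and LOC284950 lie below the controls in EA30 and above them in EA45.

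MEIKIN, a kinetochore protein of meiosis, showed a pattern between these. It had 535, 516 and 593 CPM in the controls, 748 in EA30 and 2283 in EA45. Its log2 fold change between the doses was 1.61 (SE 0.19, edgeR adjusted p = 0.000165), whereas EA30 against the controls missed the threshold (log2 fold change 0.45, edgeR adjusted p = 0.0803). A second annotated gene shares 1038 bases of its exons on the same strand, so the counts may belong to either.

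The values of the long non-coding RNA LINC00668 and of LURAP1L rose from the controls to EA30 and from EA30 to EA45. LINC00668 had 109, 138 and 117 CPM in the controls, 712 in EA30 and 2303 in EA45, a log2 fold change between the doses of 1.69 (SE 0.21, edgeR adjusted p = 0.000219). LURAP1L had 232, 214 and 183 CPM in the controls, 703 in EA30 and 2074 in EA45, a log2 fold change of 1.56 (SE 0.22, edgeR adjusted p = 0.000439). In both, the libraries stood in the order of the dose with no overlap with the controls. TDP2, which repairs topoisomerase adducts on DNA, had 353 CPM in EA30 and 828 in EA45, above 215, 222 and 190 CPM in the controls. Its log2 fold change was 1.23 (SE 0.31, edgeR adjusted p = 0.0286), and DESeq2's Wald test ended the call (adjusted p = 0.104).

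LOC284950, a non-coding RNA, followed CD70 in that EA30 was below the controls and EA45 above them. It had 3099, 3267 and 3044 CPM in the controls, 2629 in EA30 and 5080 in EA45 (log2 fold change 0.95, SE 0.15, edgeR adjusted p = 0.000991), while EA30 against the controls did not pass (edgeR adjusted p = 0.202). The remaining named transcripts that were higher in EA45 differed by less. EBLN1, which derives from an ancient bornavirus insertion, had a log2 fold change of 0.84 (SE 0.21, edgeR adjusted p = 0.0286), with 1645 CPM in EA30 and 2940 in EA45. LOC107986065 gave 0.91 (SE 0.23, edgeR adjusted p = 0.0304), CREB3, a membrane-bound transcription factor of the secretory pathway, 0.69 (SE 0.17, edgeR adjusted p = 0.0286), and MED10, a Mediator subunit, 0.68 (SE 0.18, edgeR adjusted p = 0.0324). All 4 lost the call with DESeq2's Wald test, with adjusted p-values from 0.101 for EBLN1 to 0.191 for MED10. Without control 2 the edgeR adjusted p was 0.0536 for CREB3 and 0.0701 for MED10.

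Among the transcripts that were lower in EA45, POLR2L, a small subunit shared by the nuclear RNA polymerases, was one of the most abundant. It had 9208, 10217 and 10231 CPM in the controls, 7148 in EA30 and 3295 in EA45, a log2 fold change between the doses of -1.12 (SE 0.14, edgeR adjusted p = 0.000219). Its exons overlap those of CD151 on the opposite strand by 257 bases. SOX4, a transcription factor of progenitor and tumour cells, had 3914, 4484 and 4229 CPM in the controls, 1200 in EA30 and 494 in EA45 (log2 fold change -1.28, SE 0.18, edgeR adjusted p = 0.000439). Most of its distance from the controls was already there at the lower dose. NDC80, a kinetochore protein that binds microtubules, had 832, 650 and 743 CPM in the controls, 298 in EA30 and 90.5 in EA45, from 126 and 26 counts (log2 fold change -1.72, SE 0.33, edgeR adjusted p = 0.00478).

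MXD4, a partner of MAX that represses MYC targets, had 866, 901 and 1149 CPM in the controls, 651 in EA30 and 247 in EA45. The log2 fold change between the doses was -1.40 (SE 0.26, edgeR adjusted p = 0.00419). ANKH, a membrane protein needed for the release of pyrophosphate from cells, had 436, 530 and 506 CPM in the controls, 222 in EA30 and 55.7 in EA45. For both genes the libraries stood in the order of the dose, and ANKH gave a log2 fold change of -1.99 (SE 0.40, edgeR adjusted p = 0.00733) on 94 and 16 counts. ALOX12B, a lipoxygenase of the epidermis, had the largest fall among the called transcripts with a symbol. It had 467, 294 and 353 CPM in the controls, 277 in EA30 and 45.2 in EA45, the latter from 13 counts (log2 fold change -2.60, 95% interval -3.65 to -1.56, edgeR adjusted p = 0.00438).

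SVOP, a transporter-like protein of synaptic vesicles, had 2035, 2845 and 2754 CPM in the controls, 1574 in EA30 and 609 in EA45 (log2 fold change -1.37, SE 0.23, edgeR adjusted p = 0.00161). SRCIN1, an inhibitor of SRC kinase signalling, fell from 769 CPM in EA30 to 334 in EA45 (log2 fold change -1.20, SE 0.25, edgeR adjusted p = 0.00776). CMBL, a cytosolic hydrolase, fell from 790 to 369 CPM (log2 fold change -1.10, SE 0.21, edgeR adjusted p = 0.00571). In all 3 genes EA30 was itself below every control and EA45 lower still.

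**Figure D4:**
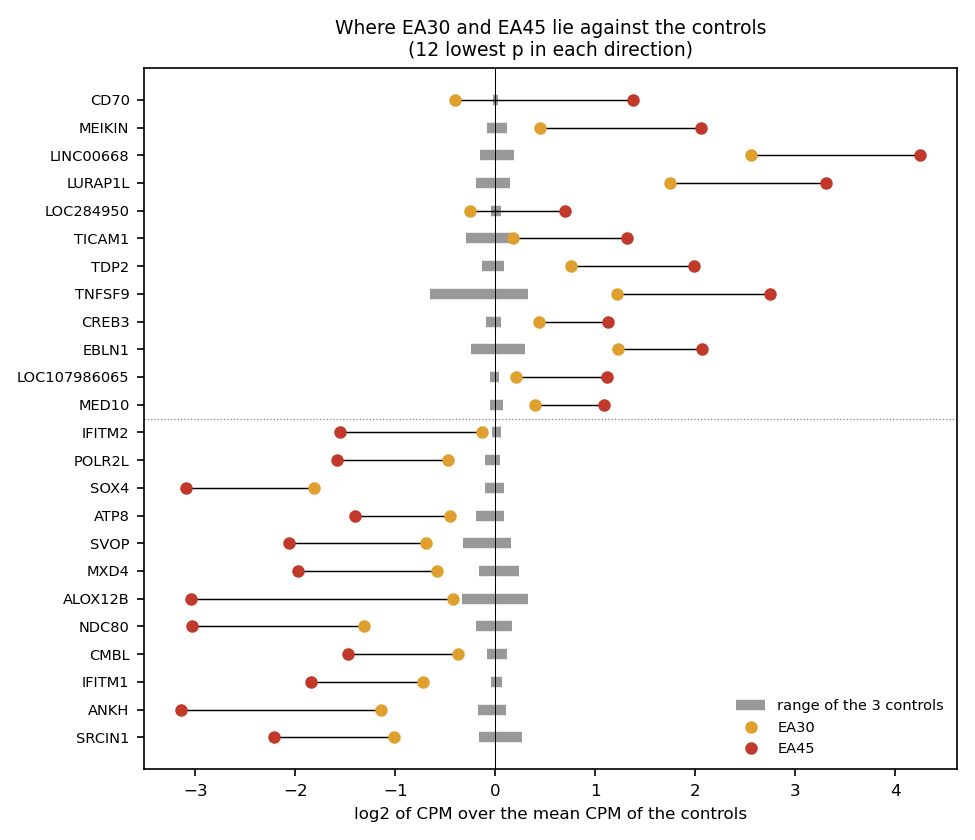
Log2 of the CPM over the mean of the controls (horizontal axis) for EA30 (orange) and EA45 (red), with the range of the 3 controls as a grey bar, for the 12 called transcripts with a symbol and the lowest p in each direction. Those above the dotted line are higher in EA45 than in EA30 and those below it lower. CD70 and LOC284950 are the ones that lie on opposite sides of the controls in EA30 and EA45.

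The position against the controls separates the called transcripts into few shapes. Of the 19 that were higher in EA45, 13 were above every control in both libraries, with EA45 further out. The other 6, CD70, LOC284950, YPEL3-DT, LOC105370664 and the unnamed XR_001739408.1 and XM_011513051.2, were below every control in EA30 and above every control in EA45. Over all 644 tested transcripts, 160 (24.8%) were above the controls in both libraries and 22 (3.42%) were below them in EA30 and above them in EA45. Of the 27 that were lower in EA45, 21 were below every control in both libraries, as were 162 (25.2%) of all tested. LAMC1 and XM_024453828.1 lay within the controls in EA30 and below them in EA45. FANCG and NM_001310140.1 lay above them in EA30 and below them in EA45, and the other 2 were above them in EA30. Of these 2, 1 was still above every control in EA45, with 4323 CPM in EA30 and 2978 in EA45 (log2 fold change -0.54). That transcript missed the threshold in 4 of 10 alternatives. These places are read from the values, and lying outside 3 controls is not a call. With scaling over all 9 libraries TICAM1 (424 CPM in EA30, 426 in control 2) and FANCG (731 CPM in EA30, 748 in control 1) lay within the controls in EA30. Several of these calls were weak. DESeq2's Wald test did not call YPEL3-DT (adjusted p = 0.132), LOC105370664 and XM_011513051.2 (0.175 for both), FANCG (0.164) or NM_001310140.1 (0.117). Without control 1 the edgeR adjusted p was 0.0654 for XR_001739408.1, 0.056 for LOC105370664, 0.0648 for NM_001310140.1 and 0.0551 for XM_024453828.1. XM_024453828.1 was also lost with limma-voom (adjusted p = 0.0851), and FANCG in edgeR when every transcript was kept (adjusted p = 0.195). Counts of shapes were not tested, and genes outside the 12 lowest p-values of a direction are named here after their values were seen.

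Of the last 2, XR_002957883.1, a RefSeq transcript without a matched symbol, lay within the controls at the higher dose. It had 48 counts in EA30 and 0 in EA45, with 0, 0 and 2 counts in the controls. Set against a floor of 3 counts in EA45 and with the 48 counts in EA30 taken as exact, it was 10.9-fold lower in EA45. Its mean of 10 counts was reached only through EA30, the library in which it is high, so the count that admitted it also made the difference, and its call is no independent test.

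LAMC1, a laminin chain of the basement membrane, had 2652, 3525 and 4146 CPM in the controls, 2993 in EA30 and 1587 in EA45 (log2 fold change -0.92, SE 0.23, edgeR adjusted p = 0.0286). The controls themselves were widely spread, and EA30 lay among them. TLN1, which links integrins to actin, gave -0.55 (SE 0.13, edgeR adjusted p = 0.0256), with 6559 CPM in EA30 and 4471 in EA45, and was not called by edgeR when every transcript was kept (adjusted p = 0.233). On chromosome 9 the exons of TLN1 and CREB3 overlap on opposite strands by 61 bases, and one was lower in EA45 and the other higher. The strand setting of the counting is not given in the sources used here, so reads from overlapping genes on opposite strands cannot be told apart. This holds for POLR2L and CD151, for NOL7 and RANBP9 (347 bases), and for SOX4 (168 bases), ALOX12B (736 bases), CHMP1B (553 bases), LINC00668 (596 bases) and PLK1 (553 bases) with antisense genes or a pseudogene. CREB3 also overlaps GBA2 (139 bases), and SVOP shares 407 bases with another gene on its own strand. MT1B belongs to a family of near-identical metallothionein genes and is uncertain for that reason.

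Of the 404 tested transcripts of protein-coding genes, 12 were higher and 18 lower in EA45. Of 115 long non-coding RNAs, 5 were higher and 1, FLJ32255, lower. Of the 102 transcripts with no matched gene, 2 were higher and 8 lower. Over all 644 tested transcripts 2.95% were higher and 4.19% lower, and the types were not compared by a test.

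Gene lists were described by their counts and their median, beside the median of -0.03 over all tested transcripts, of which 2.95% were higher and 4.19% lower. Of 97 symbols listed for tubulins and their cofactors, 5 had a count and 3 were tested, with a median log2 fold change of 0.41 and 0 called. TUBB6 had 774, 712 and 806 CPM in the controls, 426 in EA30 and 567 in EA45, so that the higher dose lay closer to the controls. The difference between the doses did not pass (log2 fold change 0.41, 95% interval -0.07 to 0.90, edgeR adjusted p = 0.3). TUBB2B was again lowest in EA30, with 54, 45 and 29 counts in the controls, 21 in the deeper EA30 library and 25 in EA45 (log2 fold change 0.80, 95% interval -0.45 to 2.05, edgeR adjusted p = 0.423). TUBA4B gave -0.59 (95% interval -2.35 to 1.17, edgeR adjusted p = 0.701). All 3 overlap another gene on the opposite strand, AFG3L2, PSMG4 and TUBA4A in this order. TBCB had 6 counts in EA30 and 3 in EA45, and TPPP3 had 0 in both.

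For mitosis, 6 of 54 listed genes had a count and 2 were tested, NDC80 and PLK1. PLK1, a mitotic kinase, had 597, 629 and 510 CPM in the controls, 584 in EA30 and 605 in EA45. The libraries overlapped, and the log2 fold change between the doses was 0.05 (95% interval -0.47 to 0.57, edgeR adjusted p = 0.912). TOP1 was listed at 0 in all 5 libraries. TOP3B had 16 counts in EA30 and 6 in EA45, too few for testing, a ratio of EA45 over EA30 of 0.551. The counting interval of 0.177 to 1.48 leaves out the spread between libraries.

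For the Wnt pathway, 11 of 74 listed symbols had a count and 5 were tested, with a median log2 fold change of -0.25 and 0 called. FZD7, a receptor, had 355, 520 and 380 CPM in the controls, 471 in EA30 and 289 in EA45. EA45 was below every control and EA30 among them, but the difference did not pass (log2 fold change -0.70, 95% interval -1.42 to 0.01, edgeR adjusted p = 0.23). TCF7L1, a transcription factor that represses Wnt targets, gave -0.22 (95% interval -0.50 to 0.05, edgeR adjusted p = 0.312), with 9134 CPM in EA30 and 7815 in EA45. The ligand WNT5A had 762 CPM in EA30 and 759 in EA45, a log2 fold change of -0.01 (95% interval -0.47 to 0.46, edgeR adjusted p = 0.985) whose sign changed under 3 of 10 alternatives. DKK4, a secreted antagonist, and TLE6, a corepressor, gave -0.50 (95% interval -2.05 to 1.05) and -0.25 (95% interval -2.14 to 1.65). Among genes with too few counts for testing, WNT3 had 3 counts in EA30 and 10 in EA45, a ratio of 4.90. The counting interval of 1.26 to 27.7 leaves out the spread between libraries. DKK2 had 0 counts in both.

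GABRB1, IL10 and BDNF, which the study also names, had few counts. GABRB1, a subunit of the GABA receptor, had 9, 7 and 9 counts in the controls, 10 in EA30 and 0 in EA45. Set against the floor of 3 counts, it was 2.27-fold lower in EA45. That value takes the 10 counts in EA30 as exact and leaves out the spread between libraries. The cytokine gene IL10 had 5 and 4 counts and the neurotrophin gene BDNF 0 and 1 in EA30 and EA45.

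**Figure D5:**
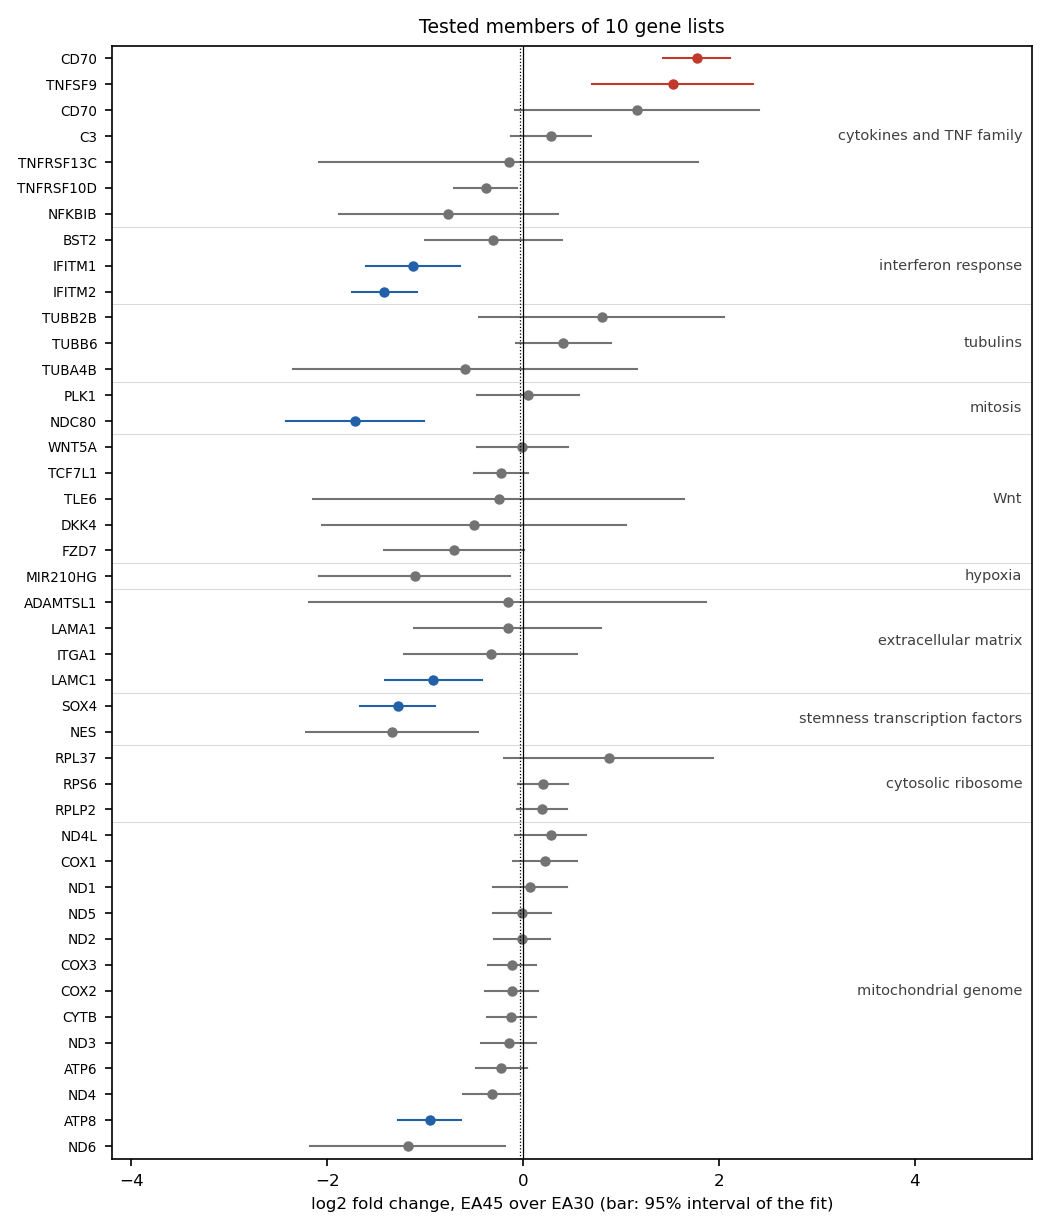
Log2 fold change of EA45 over EA30 (horizontal axis) with its 95% interval for the tested transcripts of 10 gene lists. Red and blue mark those called higher and lower, grey those not called, and the dotted line is the median of all 644 tested transcripts.

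Of 29 genes listed for the response to low oxygen, 1 was tested, MIR210HG, the host gene of a hypoxia-induced microRNA. It had 545, 661 and 676 CPM in the controls, 82.8 in EA30 and 38.3 in EA45, from 35 and 11 counts. Both doses were far below the controls, and the difference between them did not pass (log2 fold change -1.11, 95% interval -2.08 to -0.13, edgeR adjusted p = 0.163). Of 47 genes listed for ER stress and ATF4, 4 had a count and none was tested, and none was tested of 47 for replication and 21 immediate early genes.

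All 13 genes of the mitochondrial genome were tested. ATP8, a subunit of ATP synthase, was called lower and the other 12 were not called, with 3 of 13 positive and a median log2 fold change of -0.11. ATP8 had 20677, 20500 and 17008 CPM in the controls, 14181 in EA30 and 7331 in EA45 (log2 fold change -0.95, SE 0.15, edgeR adjusted p = 0.00132), and it shares 46 bases with ATP6, which gave -0.22 (edgeR adjusted p = 0.302). The complex I gene ND6, the one encoded on the other strand, gave -1.18 on 80 and 24 counts (edgeR adjusted p = 0.143), and ND4 gave -0.32 (edgeR adjusted p = 0.172). ND4L, COX1 and ND1 were positive, with 0.28, 0.23 and 0.07. COX2, COX3, CYTB and ND3 lay between -0.15 and -0.11, and ND2 and ND5, at -0.01 and -0.005, turned positive without the filter on low counts.

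Of 7 transcripts tested for cytokines and the TNF family, 2 were called, both higher (2.95% of all tested were higher), and the median was 0.29. On the list for the interferon response, the 2 close copies IFITM1 and IFITM2 were lower of 3 tested (4.19% of all tested were lower), with a median of -1.12. RIGI, with more CPM in EA45 than in EA30, and TRIM38, with fewer, were not on this list, and neither was called. For the extracellular matrix 1 of 4, LAMC1, was lower, with a median of -0.24. In the list for stem cell factors both tested members were low in EA45. SOX4 was called, and NES, which encodes a filament and no transcription factor, gave -1.34 (95% interval -2.21 to -0.46, edgeR adjusted p = 0.0606). TDP2 and POLR2L were the only tested members of the lists for DNA repair with p53 targets and for RNA polymerases. The repair list did not hold FANCG, which was called lower (log2 fold change -0.89). POLQ (134 CPM in EA30 and 235 in EA45) and ALKBH3 (307 and 242 CPM), scaled over all 9 libraries, were not on it either. Neither of these was called. Of 112 transcripts tested as long non-coding host or antisense genes, 5 were higher and 0 lower, with a median of 0.04.

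The other lists, with 0 called, are given for transcripts of protein-coding genes alone, a choice made after the values were seen, since symbols also matched divergent and antisense RNAs. The median was 0.21 for 3 cytosolic ribosomal proteins, 0.20 for 4 translation factors, 0.04 for 4 mitochondrial ribosomal or import proteins, 0.01 for 4 nuclear genes of the respiratory chain, 0.15 for 13 zinc finger proteins, 0.02 for 14 transcripts with SLC symbols, mostly solute carriers, -0.22 for 3 histones, -0.08 for 3 chromatin regulators and -0.0017 for 7 transcripts of membrane traffic. The list for glycolysis and the pentose phosphate pathway had 1 tested member, the pentose phosphate gene TALDO1, at 0.33, so it gives no value for glycolysis. Other lists with 1 or 2 tested transcripts gave -1.22 for NRF2 and redox (TALDO1 and PRDX2), -0.54 for the ubiquitin-conjugating enzyme gene UBE2Q1, -0.10 for the heat shock gene DNAJA1, -0.66 for lipid synthesis (ACACA) and -0.21 for the kinases MAP3K9 and STK11. With the non-coding transcripts and the pseudogene kept, the medians were -0.08 for 5 of the respiratory chain, 0.12 for 14 of zinc fingers, -0.14 for 16 with SLC symbols, -0.12 for 8 of membrane traffic and -0.96 for 2 of heat shock. Those left out include NDUFA6-DT at -4.10 and DNAJC3-DT at -1.81. The redox value rested on PRDX2, with 31 counts in EA30 and 3 in EA45, a ratio of 0.142 with a counting interval of 0.0278 to 0.456.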

How the data were processed

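The authors deposited 1 table of raw counts per RefSeq transcript from 3′ end libraries (QuantSeq). The submitters' processing notes name HISAT2, HTSeq and hg38, with no versions or counting settings. Symbols came from RefSeq (GRCh38.p14), matched on the full versioned identifier for 57755 and on its stem alone for 56301. No symbol was found for 45011, which hold 4.63% of the counts. Positions and overlaps came from GENCODE release 29.

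Transcripts averaging 10 counts or more in the 5 libraries were fitted with edgeR 4.0.16 (R 4.3.3; TMM scaling, quasi-likelihood F-test, 1 coefficient each for control, EA30 and EA45), and Benjamini-Hochberg adjusted p under 0.05 was the call. The spread came from the 3 controls (2 residual degrees of freedom, median prior 11.9, biological coefficient of variation 0.171). Log2 ratios between libraries used a prior count of 2. Named genes were the 12 lowest p-values and 5 largest fold changes in each direction among called transcripts with a symbol, tested members of 6 lists (tubulins, mitosis, Wnt, hypoxia, ER stress and ATF4, mitochondrial genome), and genes the study names. Members and lists were chosen with earlier results of these data known. Alternatives used DESeq2 1.42.0, limma 3.58.1, other filters, all 9 libraries, other thresholds and each control left out. The fit was also run on simulated data in which the treated libraries varied like the controls, so that run cannot test this assumption. Tables and figures used Python 3.11.15 with pandas 2.3.3, numpy 2.4.6, scipy 1.17.1 and matplotlib 3.10.9.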

Additional observations from a re-analysis of the deposited data

How the results depend on the processing

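The number of transcripts that differed between EA45 and EA30 (46, with 19 higher and 27 lower) was 26 with DESeq2's Wald test (7 higher), 28 for changes of 2-fold or more (9 higher) and 146 at an unadjusted p under 0.05 (54 higher, 92 lower). Leaving out 1 control gave 53 to 83 in all, 22 to 34 higher and 31 to 49 lower. With DESeq2's size factors, limma-voom, no filter, a mean of at least 50 counts, no mitochondrial transcripts or all 9 libraries it lay between 48 and 60. Of the 46 transcripts, 25 passed in every alternative that gave them an adjusted p, and 21 missed the threshold in at least 1. The Wald test lost 18 and gave no adjusted p for 2. EA30 against the controls gave 92 transcripts, 47 for changes of 2-fold or more and 163 at an unadjusted p under 0.05. Between EA45 and the controls, all counts stayed within 1.5 times the main count. The median absolute log2 ratio between the doses was 0.37 with a mean of at least 50 counts, in place of 0.50, with 0.16 to 0.20 between controls. Signs turned only for values near 0: without the filter ND2 gave 0.087, ND5 0.095 and WNT5A 0.093, with a mean of at least 50 counts ND5 gave 0.0039 and WNT5A 0.0022, and without mitochondrial transcripts WNT5A gave 0.0082; the cause was not tested. No paired analysis was possible because the treated groups have 1 library each. Depth limits low transcripts: 3 counts equal 6.12 CPM of the total in EA30 and 9.21 in EA45.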

Other observations

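Levels of some of the called transcripts, picked after the values were seen, in the other 4 libraries of the series are given here as values, in CPM after TMM scaling over all 9 libraries, with no test. On this scale CD70 had 1049 CPM in EA30 and 3557 in EA45. It had 5645 CPM with 35 µM EA and 320 µM TMZ, 1933 with 20 µM EA and 380 µM TMZ, 2514 with 20 µM EA and 580 µM TMZ, and 2159 with 600 µM TMZ alone. MEIKIN had 2297 CPM with 35 µM EA and 320 µM TMZ, close to 2205 in EA45, and between 699 and 878 in the other 3 libraries, close to 729 in EA30. LINC00668 had 1969 CPM with 35 µM EA and 320 µM TMZ and 245 to 472 in the other 3. SVOP had 216 CPM with 35 µM EA and 320 µM TMZ, below 588 in EA45, and 890 to 1465 in the other 3.

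POLR2L and TICAM1 were less far from the controls with 35 µM EA and 320 µM TMZ (4192 and 619 CPM) than in EA45 (3184 and 925 CPM). With 20 µM EA and 380 µM TMZ, POLR2L had 9796 CPM, among the controls at 9271, 10062 and 9926. IFITM2 had 653 CPM with 35 µM EA and 320 µM TMZ, below 1109 in EA45, and 2268 to 2970 in the other 3. SOX4 had 226 CPM with 35 µM EA and 320 µM TMZ, 731 and 520 with 20 µM EA and 380 or 580 µM TMZ, and 1582 with 600 µM TMZ alone. NDC80 had 236 CPM with 35 µM EA and 320 µM TMZ, 612 and 547 with 20 µM EA and 380 or 580 µM TMZ, and 1213 with 600 µM TMZ alone, above the 3 controls at 838, 640 and 721. XR_002957883.1, with 48 counts in EA30, was listed at 0 in 3 of these 4 libraries and at 3.27 CPM with 20 µM EA and 580 µM TMZ.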
